A study of Mus musculus with 12 samples.

Results

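The transcriptomes of Faf2 knockout (KO) and wild-type (WT) NE-4C cells were compared after induction with retinoic acid (RA). The comparison used the 3 KO RA and the 3 WT RA libraries, which are 6 of the 12 libraries sequenced, and all genes expressed above a filter on low counts. NE-4C is a neural progenitor cell line made from the brain of mouse embryos at embryonic day 9. Cells of both groups received 1 µM RA for 24 h, then basal medium, and were collected on day 3. KO RA cells carried a CRISPR-Cas9 deletion of exon 4 of Faf2, and WT RA cells carried no edit. The KO line grew from a picked colony, so that the edit and other features of that line cannot be told apart. The replicates of each group came from 3 separate passages. The other 6 libraries were of the same lines without RA (KO NO and WT NO) and entered the fit to share the estimate of the spread.

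FAF2 is an adaptor protein of the endoplasmic reticulum (ER) membrane. It recruits the p97 ATPase, which pulls misfolded proteins out of the ER so that the proteasome can degrade them, and it also acts at lipid droplets. When misfolded proteins accumulate, cells start the unfolded protein response through the sensors ATF6, PERK and IRE1. RA is a derivative of vitamin A that binds nuclear receptors and directs neural progenitors towards neurons. The question of the comparison was which genes differed between the genotypes once differentiation had been induced.

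Levels are given as CPM, counts scaled to a common library total with TMM factors between libraries. The 6 libraries held 17370049 to 25660471 deposited counts. A floor of 3 counts stood at 0.102 to 0.297 CPM. KO RA replicate 3 had another composition than the rest. The 100 most abundant genes made up 62.5% of it and 39.3% to 50.4% of the other 5 RA libraries, and the TMM factors were 0.394 and 0.872 to 1.28. Mitochondrially encoded genes took 23.5% of it and 12.4% to 17.7% of the other 5. Ribosomal protein genes took 27.8% of it, against 18.5% and 18.7% in KO RA replicates 1 and 2 and 23.6% to 25.6% in WT RA. Among the genes that differed most in it, Bc1, a short neuronal RNA, was at 26716 CPM, against 377 and 349 CPM in KO RA replicates 1 and 2, and Rn7sk was at 680 CPM against 10.9 and 7.15 CPM. The main results are therefore given with all libraries and without KO RA replicate 3. In bulk RNA, fewer cells of a type and less RNA per cell cannot be told apart.

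Faf2 itself (ENSMUSG00000025873, GRCm39 chromosome 13, 54769596 to 54813238) was at 35.1, 37.9 and 49.1 CPM in WT RA and at 36.1, 34.3 and 18.7 CPM in KO RA. KO RA replicates 2 and 3 lay below every WT RA library, whereas KO RA replicate 1 lay within their range. KO RA differed from WT RA by −0.45 on the log2 scale (standard error 0.27, Benjamini-Hochberg adjusted p = 0.395 in edgeR's quasi-likelihood test), and by −0.21 (standard error 0.18, adjusted p = 0.489) without KO RA replicate 3. The deleted exon 4 spans 77 bases of the Faf2-203 transcript, from 54793058 to 54793134. A count over the whole gene does not separate transcripts with and without that exon, so that these values do not check the genotype labels.

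With all libraries, 146 genes were higher and 59 were lower in KO RA than in WT RA at an adjusted p under 0.05. These were 0.885% and 0.358% of the 16502 genes tested. Their median log2 fold changes were 3.90 and −1.64, and the median over all tested genes was 0.09. In 40 of the 146 genes every WT RA library was at or under the floor, and with these genes set at their lower bound the median of the 146 was 3.42. All 205 called genes had 3 KO RA libraries on the same side of the 3 WT RA libraries, a pattern seen in 9.97% (above) and 10.9% (below) of all tested genes. The called genes comprised 136 protein-coding genes and 5 long noncoding RNAs among the higher, and 51 and 6 among the lower.

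With KO RA replicate 3 left out, the same test called 765 genes higher and 942 lower, 4.42% and 5.44% of the 17327 genes tested. All 146 and all 59 genes of the fit with all libraries were among them. Standard errors had a median of 0.43 with all libraries and of 0.30 without that replicate. In KO RA replicate 3 itself, 458 of the 765 higher genes (59.9%) and 425 of the 942 lower genes (45.1%) lay on the same side of the WT RA mean as in the other 2 replicates. Of the genes called only without it, 307 of 619 higher and 517 of 883 lower genes had KO RA replicate 3 on the other side of the WT RA mean.

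**Figure D1:**
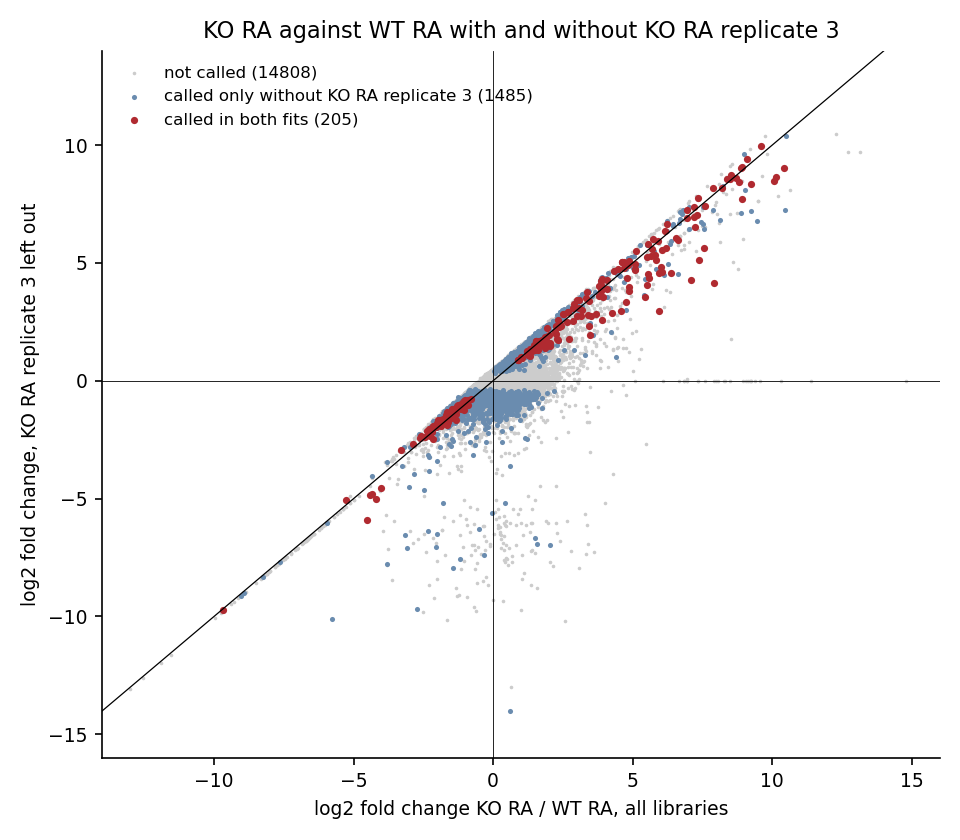
Each point is a gene tested in both fits, at its log2 fold change of KO RA over WT RA with all libraries (horizontal axis) and without KO RA replicate 3 (vertical axis). Red points are the 205 genes called in both fits, blue points are 1485 genes called only without that replicate, and grey points are 14808 genes called in neither. The red points lie near the diagonal, and many blue points below 0 on the vertical axis lie around or above 0 on the horizontal axis.

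Genes of meiosis and the germ line, which somatic cells normally keep silent, were among the higher genes. Of 19 tested members of a germline and meiosis list, 7 were higher and none was lower, against 0.885% and 0.358% of all tested genes. The median log2 fold change of the list was 2.28, or 2.17 with members at the floor set at their bound. Leaving out KO RA replicate 3, 10 of 20 were higher and none was lower, with a median of 2.34, or 1.64 at the bound. In that fit 4.42% of all tested genes were higher and 5.44% lower. The list held 46 genes, and the rest had too few counts to be tested. Members near 0 CPM in WT cells could pass the filter on counts only through KO libraries. The counts and medians of this list therefore favour higher genes.

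The gene with the smallest p was Stag3 (ENSMUSG00000036928, chromosome 5, 138278502 to 138310655), a subunit of the meiotic cohesin ring that holds sister chromatids together. It was at 0.144, 0.242 and 0.0955 CPM in WT RA and at 26.7, 23.9 and 9.81 CPM in KO RA. KO RA replicate 3 was the lowest KO RA library and still lay far above WT RA. The log2 difference was 6.93 (standard error 0.54, adjusted p = 0.000746), and 7.25 without KO RA replicate 3 (standard error 0.33, adjusted p = 6.23e-06). Rbm46 (ENSMUSG00000033882, chromosome 3, 82743830 to 82783834), a germ-cell RNA-binding protein, was expressed in WT RA, at 5.34, 5.24 and 5.69 CPM, and was at 28.9, 25.1 and 22.4 CPM in KO RA. Both groups were tight and did not overlap, with a log2 fold change of 2.23 (standard error 0.19, adjusted p = 0.00113).

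Hormad2 (ENSMUSG00000020419, chromosome 11, 4295737 to 4391216), which marks unsynapsed chromosome axes in meiosis, was at 0.288, 0.145 and 0.143 CPM in WT RA and at 7.13, 7.80 and 12.4 CPM in KO RA. The log2 difference was 5.52 (adjusted p = 0.00182, standard error 0.58). Syce2 (chromosome 8, 85598740 to 85614853), a central element protein of the synaptonemal complex, was at 6.59, 4.85 and 5.64 CPM in WT RA and at 76.1, 84.6 and 335 CPM in KO RA. Here KO RA replicate 3 was the highest library, and the log2 fold change fell from 4.86 to 3.81 without it (adjusted p = 0.0165 and 0.00520). Zcwpw1, a reader of the histone marks at meiotic recombination sites, Iho1, which is needed for meiotic DNA breaks, and Dnmt3l, a cofactor of DNA methylation in germ cells, rose by 2.28, 3.67 and 4.07 on the log2 scale.

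A further 3 members were called only without KO RA replicate 3. Mei4, a partner of IHO1, had a log2 fold change of 1.51 (adjusted p = 0.0361), Rec8, the meiotic kleisin of cohesin, had 4.72 (adjusted p = 0.0140), and Smc1b, a meiotic cohesin ATPase, was listed at 0 CPM in all 3 WT RA libraries and at 0.316, 1.02 and 0.198 CPM in KO RA. Smc1b was at least 3.55-fold higher in KO RA over all 3 replicates. The defining germ cell markers Ddx4 and Dazl were not tested because of their low counts. Ddx4 stood at 0.0481, 0 and 0 CPM in WT RA and at 0.0451, 0.102 and 1.19 CPM in KO RA, above the floor in KO RA replicate 3 alone. Dazl was at 0 CPM in all 3 WT RA libraries and at 0.0451, 0 and 0.198 CPM in KO RA, under the floor in each.

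Promoters of these genes are shown since germline genes in somatic cells are known to be repressed through elements near their start, among them the E-box CACGTG and the E2F core GCGGGA. The windows run from 250 bases before to 50 bases after the start (RefSeq, GRCm38.p6), and each has a single exact match in GRCm39 at the position given. They are written 5′ to 3′ on the strand of the gene, and capitals mark the E-box and the E2F core (TCCCGC where it reads on the other strand).
Stag3, GRCm39 chr5:138278521-138278820, forward strand: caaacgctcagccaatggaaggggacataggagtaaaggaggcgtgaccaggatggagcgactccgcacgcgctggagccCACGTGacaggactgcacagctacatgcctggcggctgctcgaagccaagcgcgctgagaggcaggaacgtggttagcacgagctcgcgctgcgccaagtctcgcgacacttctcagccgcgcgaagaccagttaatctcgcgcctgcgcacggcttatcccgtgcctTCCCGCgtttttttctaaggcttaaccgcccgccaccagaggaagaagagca
Rbm46, GRCm39 chr3:82783741-82784040, reverse strand: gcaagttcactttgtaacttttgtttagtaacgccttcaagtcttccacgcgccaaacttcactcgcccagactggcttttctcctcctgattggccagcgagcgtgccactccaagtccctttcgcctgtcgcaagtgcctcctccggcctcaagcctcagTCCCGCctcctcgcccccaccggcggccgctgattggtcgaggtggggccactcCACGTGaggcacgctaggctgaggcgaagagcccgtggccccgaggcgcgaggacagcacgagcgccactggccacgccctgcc
Hormad2, GRCm39 chr11:4391033-4391332, reverse strand: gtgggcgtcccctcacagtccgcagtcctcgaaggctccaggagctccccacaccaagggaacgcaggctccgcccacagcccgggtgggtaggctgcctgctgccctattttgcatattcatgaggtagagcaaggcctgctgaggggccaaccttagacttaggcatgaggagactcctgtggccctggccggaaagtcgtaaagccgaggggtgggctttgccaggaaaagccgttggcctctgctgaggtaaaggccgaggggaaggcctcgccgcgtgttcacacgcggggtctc

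Stag3 and Rbm46 each held 1 E-box and 1 E2F core, and the Hormad2 window held neither. Both strands were searched, and the E-box, a palindrome, reads the same on each. Of the 7 called germline genes, 2 held an E-box, 3 held an E2F core and 2 held both. Of 17 tested germline genes with a promoter in the table, 5 held an E-box, 11 held an E2F core and 4 held both. The E-box stood in 7.24% of all 27025 promoters of the table and in 10.0% of the 11082 promoters of tested genes. Among genes with a promoter in the table, it stood in 14 of 110 higher genes (12.7%) and 6 of 38 lower genes (15.8%). The E2F core stood in 5410 of all 27025 promoters, in 36.6% of those of tested genes, in 33.6% of higher genes and in 19 of the 38 lower genes. The letters TGATG, the core of elements bound by ATF4, stood in 27.4% of tested, 28.2% of higher and 28.9% of lower genes. These shares describe letters in a window and not binding.

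Other genes with the smallest p among the higher ones came from several functions. Palmd (ENSMUSG00000033377, chromosome 3, 116711324 to 116762691), a membrane-associated paralemmin-related protein, was at 4.33, 4.51 and 4.35 CPM in WT RA and at 66.6, 105 and 48.3 CPM in KO RA. This was a log2 difference of 4.06 (adjusted p = 0.00167, standard error 0.38). P2rx4, an ATP-gated cation channel, was at 4.28, 4.66 and 6.07 CPM against 36.9, 48.9 and 23.7 CPM. The groups of both genes were well apart, with KO RA replicate 3 the lowest of the KO RA libraries.

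Slc50a1, a sugar transporter, was under the floor in WT RA and at 10.8, 10.4 and 11.6 CPM in KO RA, at least 75.7-fold higher. Cyp2j6, a cytochrome P450 that oxidizes fatty acids, was also at the floor in WT RA and was at least 35.0-fold higher in KO RA. Galk2, a galactokinase family member, rose by 5.82 on the log2 scale, and Slc27a2, a transporter and acyl-CoA synthetase of very long fatty acids, rose by 6.17. Mir9-3hg, the host RNA of a miR-9 gene, rose by 3.86, and the chromosome 12 gene 4930447C04Rik rose by 6.63. Loxl1, which crosslinks elastin, was at 1.06, 1.31 and 1.77 CPM in WT RA and at 24.7, 21.4 and 14.4 CPM in KO RA. None of these genes had a KO RA library within the range of WT RA.

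Several enzymes that use glutathione were higher in KO RA. Of 31 tested members of a glutathione and NRF2 list, 5 were higher and none was lower, while the list median was 0.35. In the fit without KO RA replicate 3, the same number, 5, was higher, 3 were lower and the median was −0.06. Counts of this and the following lists stand beside 0.885% of all tested genes higher and 0.358% lower with all libraries. Without KO RA replicate 3 these shares were 4.42% and 5.44%. Gstp1 (ENSMUSG00000060803, chromosome 19, 4085405 to 4088068), a glutathione transferase, was at 8.17, 5.09 and 15.8 CPM in WT RA and at 109, 112 and 68.6 CPM in KO RA. The groups did not overlap, and the log2 fold change was 3.32 (adjusted p = 0.0286, standard error 0.61). The neighbouring Gstp2 (chromosome 19, 4090285 to 4096023) is a close copy, so that reads may be shared between them, and had a log2 fold change of 2.49.

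Gpx3, a secreted glutathione peroxidase, was at 0.529, 0.485 and 1.15 CPM in WT RA and at 37.3, 51.0 and 43.6 CPM in KO RA, with KO RA replicate 3 between the other 2. Its log2 fold change was 5.92 in both fits. Gstm5 was at 10.8, 9.64 and 126 CPM in KO RA, and its log2 fold change was 7.37 with KO RA replicate 3 and 5.12 without it. Gpx7, an ER-resident peroxidase, rose by 5.54 and by 4.51. Among 40 tested genes of lipid droplets and peroxisomes, Ephx2 (chromosome 14, 66319338 to 66362011), a soluble epoxide hydrolase, was the only 1 called with all libraries, and 3 were higher and 2 lower without KO RA replicate 3. Ephx2 was at 0.817, 0.630 and 0.430 CPM in WT RA and at 10.6, 13.5 and 3.57 CPM in KO RA (log2 fold change 3.88, adjusted p = 0.00851). Over all tested genes, 4.42% were higher and 5.44% lower without KO RA replicate 3.

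Imprinted genes, which are expressed from 1 parental copy, had 3 higher and no lower members of 26 tested, with a list median of 0.51. Peg10 (ENSMUSG00000092035, chromosome 6, 4747306 to 4760517), a retrotransposon-derived placental gene, was at 38.3, 39.9 and 36.5 CPM in WT RA and at 323, 258 and 146 CPM in KO RA. Each KO RA library was above every WT RA library, and the log2 fold change was 2.66 (adjusted p = 0.00753, standard error 0.35). Sgce, which lies next to it on chromosome 6 (4672057 to 4747207) and encodes a sarcoglycan, was at 46.0, 37.9 and 157 CPM in KO RA against 10.96, 10.9 and 14.5 CPM in WT RA. Zim1, a zinc finger gene of chromosome 7, was at least 13.4-fold higher. When KO RA replicate 3 was left out, 8 of 26 members were higher and none was lower, with a median of 0.33. Of all tested genes, 4.42% were higher and 5.44% lower in that fit, and 0.885% and 0.358% with all libraries.

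Of 47 tested autophagy and lysosome genes, 1 was higher and 1 lower with all libraries, beside 0.885% and 0.358% of all tested genes. Without KO RA replicate 3, 4 were higher and 1 lower, beside 4.42% and 5.44% of all tested genes. Hexa, which encodes a subunit of the lysosomal enzyme β-hexosaminidase, was the higher gene with all libraries. Hexa (chromosome 9, 59446818 to 59474021) was at 0.288, 1.26 and 0.382 CPM in WT RA and at 60.7, 69.2 and 17.1 CPM in KO RA, a log2 fold change of 6.25 (adjusted p = 0.0389). The groups did not overlap, and KO RA replicate 3 was the lowest of the KO RA libraries.

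Some genes of the cytoskeleton and the matrix were higher in KO RA. Of 33 tested genes of the actin bundle and contractile list, 3 were higher and none was lower, with a median of 0.72. When KO RA replicate 3 was left out, 5 of 33 were higher and none was lower, and the median was 0.29. The shares of all tested genes called higher were 0.885% with all libraries and 4.42% without that replicate. Ccn2 (chromosome 10, 24471333 to 24474900), a secreted matricellular protein, was at 1.87, 1.26 and 2.20 CPM in WT RA and at 23.4, 18.7 and 39.2 CPM in KO RA. The groups stood apart, with a log2 fold change of 3.92 (standard error 0.51, adjusted p = 0.00750). Actn1, an α-actinin, rose by 1.22 and Ccn1, a relative of Ccn2, by 1.73. Tpm1, a tropomyosin, was at 209, 382 and 219 CPM in WT RA and at 662, 495 and 1461 CPM in KO RA, and was called only without KO RA replicate 3 (log2 fold change 1.09, adjusted p = 0.0282).

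Of 27 tested mesenchymal genes, 2 were higher and none was lower with all libraries, and 8 were higher and none was lower without KO RA replicate 3. The medians were 1.08 and 1.02. In the same fits, 0.885% and 4.42% of all tested genes were higher, and 0.358% and 5.44% were lower. Lox, which crosslinks collagen, was at 0.192, 0.291 and 0.143 CPM in WT RA and at 2.17, 2.28 and 2.38 CPM in KO RA (log2 fold change 3.42, adjusted p = 0.0229). Col5a1 was at 7.74, 10.9 and 5.16 CPM and at 32.0, 19.2 and 17.2 CPM (log2 fold change 1.53, adjusted p = 0.0436). Cdh11, a mesenchymal cadherin, and Col1a2, a chain of type I collagen, were called only without KO RA replicate 3, at 1.54 and 1.92. The defining mesenchymal markers Col1a1, Col3a1 and Pdgfrb did not pass with all libraries. Pdgfrb was at 0.817, 0.776 and 0.812 CPM in WT RA and at 4.02, 1.29 and 0.793 CPM in KO RA.

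**Figure D2:**
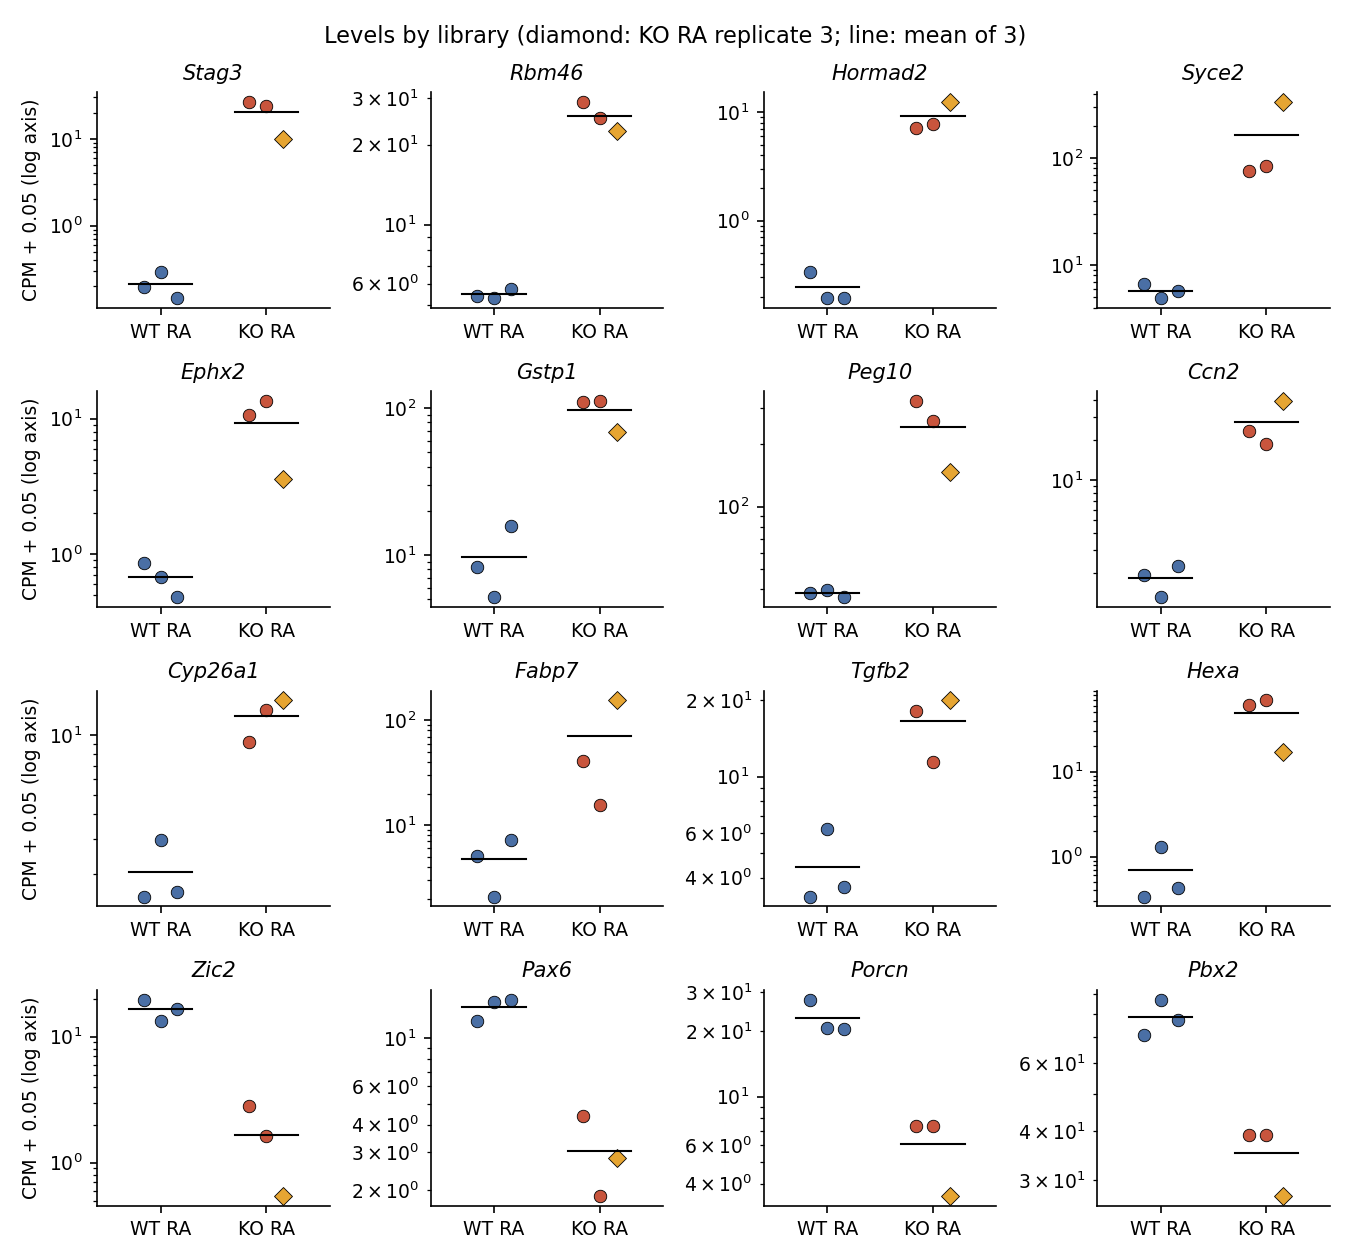
Levels of 16 genes in each library, as CPM plus 0.05 on a log axis, for WT RA (blue) and KO RA (red circles for replicates 1 and 2, diamond for replicate 3). Horizontal lines are means of 3 libraries, and in each panel the 3 KO RA points lie entirely above (Stag3 to Hexa) or below (Zic2, Pax6, Porcn and Pbx2) the 3 WT RA points.

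The lower genes included transcription factors of neural progenitors. Zic2 (ENSMUSG00000061524, chromosome 14, 122711827 to 122717264), a zinc finger factor of the dorsal neural tube, was at 19.6, 13.3 and 16.5 CPM in WT RA and at 2.75, 1.57 and 0.496 CPM in KO RA. Every KO RA library was below every WT RA library, and the log2 fold change was −3.30 (adjusted p = 0.0112, standard error 0.48). Its neighbour Zic5 (chromosome 14, 122694190 to 122703089) was at 8.03, 5.87 and 10.6 CPM and at 1.85, 1.36 and 0.793 CPM, a log2 fold change of −2.58. Pax6 (chromosome 2, 105499234 to 105530952), a paired-box factor of forebrain and eye progenitors, was at 11.8, 14.6 and 14.9 CPM and at 4.33, 1.84 and 2.78 CPM, a log2 fold change of −2.21 (adjusted p = 0.0396). Foxd3, a factor of neural crest and pluripotent cells, was at 2.02, 1.26 and 3.73 CPM in WT RA. It was at or under the floor in all 3 KO RA libraries, at least 13.1-fold lower.

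Mt2 (chromosome 8, 94898819 to 94900207), a metallothionein that binds zinc, was at 167, 145 and 110 CPM in WT RA and at 37.0, 47.2 and 35.1 CPM in KO RA (log2 fold change −1.82, standard error 0.27, adjusted p = 0.0131). The long noncoding RNA 1110038B12Rik was at 258, 331 and 227 CPM and at 84.5, 78.2 and 103 CPM. Both genes had groups that were far apart. Porcn (chromosome X, 8059935 to 8073131), the acyltransferase that Wnt ligands need for secretion, was at 27.7, 20.5 and 20.3 CPM and at 7.27, 7.26 and 3.47 CPM, a log2 fold change of −1.91 (adjusted p = 0.0173). Pbx2 (chromosome 17, 34810240 to 34816375), a partner of Hox proteins, was at 70.8, 87.2 and 77.3 CPM and at 39.1, 39.0 and 27.3 CPM, a log2 fold change of −1.16. Also lower were Them6, a thioesterase family member (−1.68), Arhgdig, a regulator of small GTPases (−2.16), Mafa, a bZIP factor (−2.04), Pcolce2, which enhances procollagen processing (−1.55), the pseudogene Gm7336 (−1.52) and the noncoding RNA ENSMUSG00000120308 (−1.997). Pseudogene counts can share reads with their parent genes.

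Neural progenitor genes as a list did not move one way. Of 29 tested members, 1 was higher and 3 were lower with all libraries, and 8 were higher and 3 lower without KO RA replicate 3. The 3 lower genes were Zic2, Zic5 and Pax6 in both fits. Shares over all tested genes were 0.885% higher and 0.358% lower with all libraries, and 4.42% and 5.44% without KO RA replicate 3. Fabp7 (chromosome 10, 57660956 to 57664554), a fatty-acid binding protein of radial glia, was at 5.05, 2.04 and 7.12 CPM in WT RA and at 40.6, 15.6 and 155 CPM in KO RA. KO RA replicate 3 was the highest, and the log2 fold change was 3.89 with it and 2.56 without it (adjusted p = 0.0376 and 0.0124). Tnc (chromosome 4, 63878014 to 63965443), a matrix glycoprotein of radial glia, was at 4.23, 3.30 and 1.86 CPM and at 24.9, 18.6 and 56.5 CPM (log2 fold change 3.41, adjusted p = 0.0165). The log2 fold change of Tnc was 2.79 without KO RA replicate 3. Fabp7 and Tnc were the called members of the astroglia list, 2 of 14 tested in both fits, whose defining markers Gfap and Aqp4 were near the floor. Gfap did not exceed 0.191 CPM in the 3 WT RA libraries and 0.102 CPM in the 3 KO RA libraries.

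Sox1, an early neural factor, was at 2.21, 2.96 and 4.25 CPM in WT RA and at 17.9, 13.9 and 3.07 CPM in KO RA. KO RA replicates 1 and 2 were above WT RA and replicate 3 was within its range. The log2 fold change of 1.90 was not called with all libraries (adjusted p = 0.185) and that of 2.33 was called without KO RA replicate 3 (adjusted p = 0.0163). Nes, the intermediate filament nestin, was at 34.1, 39.9 and 40.9 CPM and at 64.2, 56.2 and 75.0 CPM, with groups that did not overlap but an adjusted p of 0.106 with all libraries and 0.0380 without KO RA replicate 3. Lhx2, a forebrain factor, likewise passed only without that replicate (log2 fold change 2.02, adjusted p = 0.0356).

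Markers of neurons gave the following counts. Of 28 tested neuron structure genes, 1 was higher with all libraries and 4 without KO RA replicate 3, and none was lower in either. Gap43, a growth cone protein, was at 8.17, 15.8 and 11.8 CPM in WT RA and at 30.7, 31.9 and 66.6 CPM in KO RA (log2 fold change 1.85, adjusted p = 0.0358). Tubb3, the neuronal tubulin, was at 28.3, 31.9 and 33.7 CPM and at 57.8, 32.9 and 28.8 CPM, and its log2 fold change of 0.35 did not pass (standard error 0.27, adjusted p = 0.523). The log2 fold changes of Gap43 and Tubb3 without KO RA replicate 3 were 1.39 and 0.53. That of Tubb3 did not pass there either (standard error 0.23, edgeR adjusted p = 0.174). Map2, Nsg2 and Ncam1 encode a dendritic microtubule protein, a neuronal vesicle protein and an adhesion molecule. They passed only without KO RA replicate 3, at 1.42, 2.26 and 0.98. The list members Mapt and Dpysl3 had every KO RA library below every WT RA library. Their log2 fold changes were −2.70 and −1.33 with all libraries, and they did not pass in either fit. In this list 18 of 28 log2 fold changes were above 0 with all libraries, beside 9172 of 16502 over all tested genes. The proneural factor Neurog2 did not pass in either fit, with a log2 fold change of 1.54 with all libraries. None of 28 tested proneural and neuronal transcription factors and none of 19 synapse and transmitter genes was called with all libraries, where 0.885% of all genes were higher and 0.358% lower. The fit that left out KO RA replicate 3 called 4.42% of all genes higher and 5.44% lower. In it 1 was higher and 2 were lower of 32, and 2 were higher and 1 lower of 21. The lower gene of the 21 was Cplx1, with a log2 fold change of −1.51. The list medians went from 0.41 to 0.79 and from 0.32 to 0.62.

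Targets of RA gave 1 higher and 1 lower gene of 24 tested, with a median of 0.27, or 0.20 with members at the floor at their bound. The fit without KO RA replicate 3 had 4 of 25 higher and 1 lower, with a median of 0.52. Among all tested genes, 0.885% were higher and 0.358% lower with all libraries, and 4.42% and 5.44% in that fit. Cyp26a1 (chromosome 19, 37686241 to 37689984), the enzyme that degrades RA and is itself induced by it, was at 1.49, 2.91 and 1.58 CPM in WT RA and at 9.21, 13.3 and 14.9 CPM in KO RA. Its groups stood apart, with a log2 fold change of 2.64 (standard error 0.37, adjusted p = 0.00970) and of 2.49 without KO RA replicate 3. Pbx2 was the lower member. Crabp1, which binds RA in the cytosol, was at 7.07, 9.55 and 8.36 CPM and at 54.6, 34.5 and 11.4 CPM, and passed only without that replicate (log2 fold change 2.41, adjusted p = 0.0253). No Hox gene of 18 tested passed with all libraries and none of 23 without KO RA replicate 3. Their medians were −0.05 and −0.65, or 0.002 and −0.53 with members at the floor at their bound. The log2 fold change was above 0 in 9 of 18 and 8 of 23 Hox genes. Pluripotency genes had no call among 26 tested with all libraries, and 1 higher and 3 lower without KO RA replicate 3. Pou5f1, the factor OCT4, was at 2775, 2118 and 2352 CPM in WT RA and at 989, 1167 and 800 CPM in KO RA, with an adjusted p of 0.0742 with all libraries and of 0.0208 without KO RA replicate 3 (log2 fold change −1.17). Otx2, a forebrain and epiblast factor, was at 135, 106 and 127 CPM and at 82.0, 104 and 19.4 CPM and did not pass.

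Genes of the unfolded protein response gave no call with all libraries, in a fit that called 0.885% of all genes higher and 0.358% lower. None of 41 PERK and ATF4 targets, 21 ATF6 targets, 26 IRE1 and XBP1 targets, 41 genes of ER-associated degradation and 26 sterol synthesis genes passed. Their medians were −0.14, 0.49, 0.43, 0.10 and 0.08, beside 0.09 over all genes. The log2 fold change was above 0 in 15 of 41, 20 of 21, 21 of 26, 23 of 41 and 15 of 26 members. Among all tested genes it was above 0 in 9172 of 16502. Once KO RA replicate 3 was left out, the same lists had 2, 2, 1, 1 and 0 higher genes. Their lower genes numbered 1, 0, 1, 3 and 0. That fit called 4.42% of all genes higher and 5.44% lower. In it the list medians were 0.05, 0.32, 0.21, 0.01 and 0.08, beside 0.01 over all genes. The per-library medians of the ATF6 targets, relative to WT RA, were 0.44, 0.17 and 0.62 in KO RA.

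Hspa5, which encodes the ER chaperone BIP, was at 289, 352 and 326 CPM in WT RA and at 475, 374 and 709 CPM in KO RA. Each KO RA library was above every WT RA library, with a log2 fold change of 0.69 (standard error 0.28, adjusted p = 0.239), or 0.39 (standard error 0.17, adjusted p = 0.164) without KO RA replicate 3. Xbp1, the factor activated by IRE1, was at 23.03, 24.2 and 24.0 CPM and at 46.0, 33.7 and 51.7 CPM. It also stood apart but passed only without KO RA replicate 3 (log2 fold change 0.74, adjusted p = 0.0441). Sel1l, a subunit of the ER ubiquitin ligase complex, and Serp1, a small protein of the translocation pore, passed only without that replicate as well, at 0.85 and 0.91. Ddit3, the stress factor CHOP, was at 10.3, 32.8 and 13.7 CPM and at 28.4, 17.7 and 50.4 CPM, with overlapping groups (log2 fold change 0.76, adjusted p = 0.421). Atf4 was at 240, 271 and 233 CPM and at 229, 207 and 335 CPM, and its log2 fold change was 0.05 with all libraries and −0.19 without KO RA replicate 3.

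In some large classes of abundant genes, KO RA replicate 3 lay far from replicates 1 and 2. Of 84 tested cytosolic ribosomal protein genes, none was called with all libraries (median 0.17), whereas 67 were lower and none higher without KO RA replicate 3 (median −0.77). Relative to WT RA, the list median was −0.79 in KO RA replicate 1, −0.71 in replicate 2 and 1.24 in replicate 3. Rps29 (chromosome 12, 69204495 to 69205960), a protein of the small subunit, was at 4874, 4528 and 4217 CPM in WT RA and at 1710, 1832 and 16083 CPM in KO RA. Rps23 was at 2086, 1876 and 2020 CPM and at 633, 555 and 4150 CPM. In both genes the 2 lower replicates were close to each other and replicate 3 lay on the other side of WT RA. Rps10 was an exception, at 4626, 3666 and 4266 CPM and at 1917, 1879 and 1560 CPM, with every KO RA library below WT RA (adjusted p = 0.0645 with all libraries and 0.00917 without KO RA replicate 3).

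The 13 mitochondrially encoded genes had per-library medians of −0.64 and −0.70 in KO RA replicates 1 and 2 and of 1.94 in replicate 3, and 31 proteasome genes had −0.26, −0.24 and 1.37. Without KO RA replicate 3, 4 and 8 of these genes were lower and none was higher. That fit called 5.44% of all tested genes lower and 4.42% higher. It gave 8 of 40 translation factors and 5 of 29 S phase genes lower. Of 28 genes of G2 and M phase, 6 were lower, and none of these lists had a higher gene. Top2a, the mitotic topoisomerase, was at 280, 294 and 298 CPM in WT RA and at 191, 200 and 135 CPM in KO RA, with an adjusted p of 0.135 with all libraries and 0.0114 without KO RA replicate 3. Glycolysis and hypoxia genes had per-library medians of −0.82, −0.23 and −2.01 in KO RA against 0.45, −0.44 and −0.01 in WT RA, so that the ranges overlapped. Gapdh (9548, 5920 and 7331 CPM against 2893, 4311 and 2899 CPM) and Slc2a3, a glucose transporter, were called only without KO RA replicate 3, at −1.08 and −1.07. All 27 tested glycolysis and hypoxia genes but 1 had a negative log2 fold change in either fit.

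**Figure D3:**
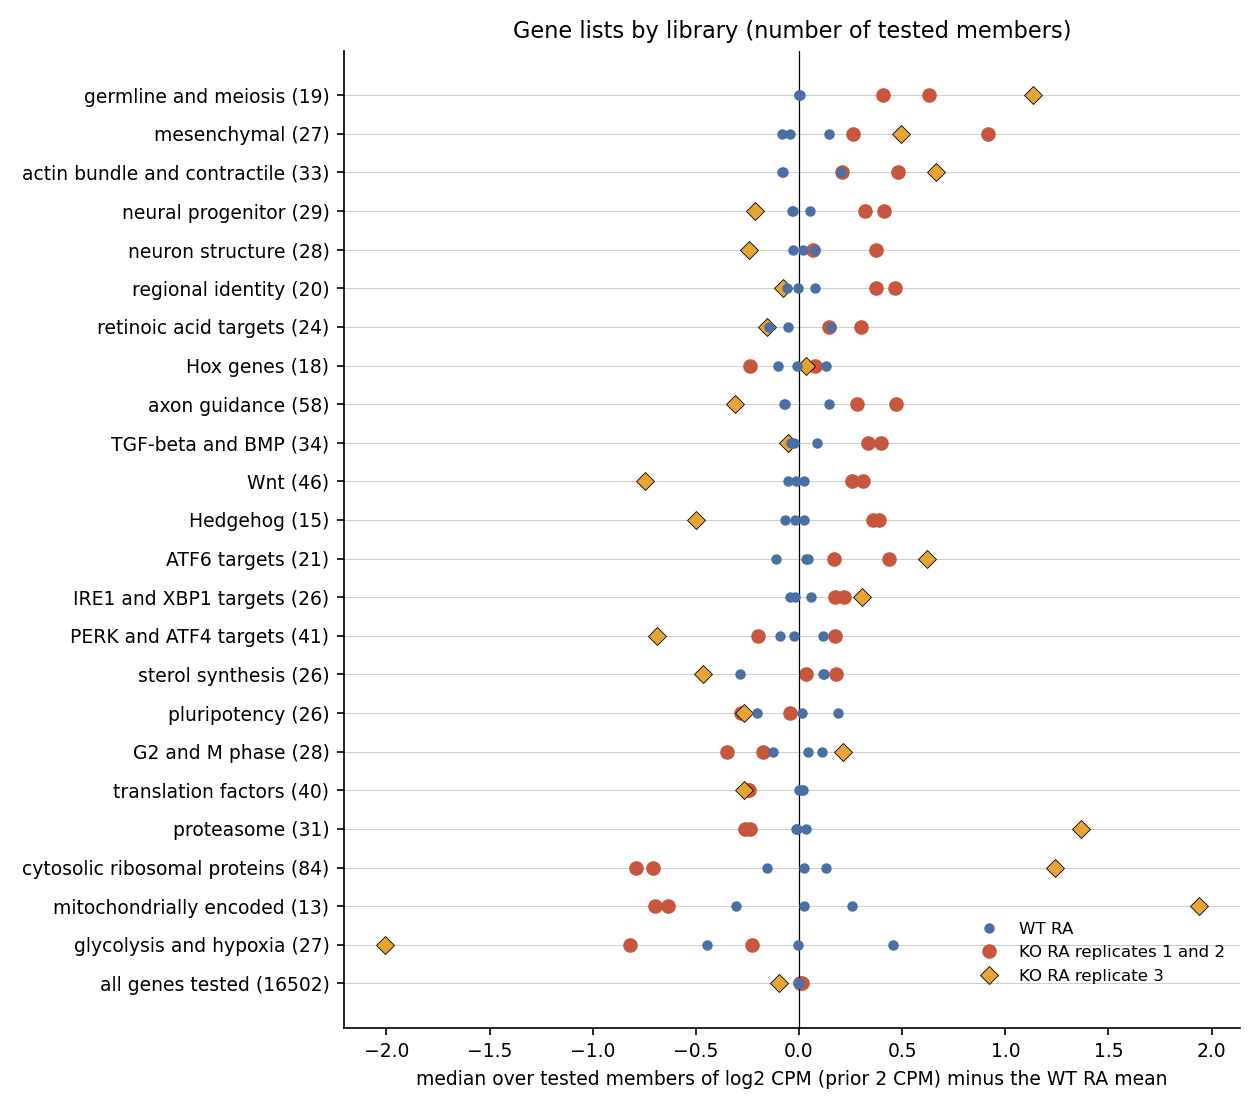
For 23 gene lists and all tested genes, the median over members of the log2 CPM (prior of 2 CPM) minus the WT RA mean, in each WT RA library (blue), KO RA replicates 1 and 2 (red) and KO RA replicate 3 (diamond). The diamond lies at 1.24 for ribosomal protein genes and at 1.94 for mitochondrially encoded genes, on the other side of 0 from the red points, while for germline and mesenchymal genes all KO RA points lie above 0.

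Among single genes called only without KO RA replicate 3, those with the smallest p had 2 close KO RA libraries and a distant value in KO RA replicate 3. Lrrn2, a neuronal leucine-rich repeat protein, was at 3.85, 4.61 and 4.49 CPM in WT RA and at 14.1, 13.6 and 3.17 CPM in KO RA. Acot1, a cytosolic acyl-CoA thioesterase, was at 8.32, 5.38 and 11.6 CPM and at 59.5, 55.8 and 7.63 CPM. In both genes KO RA replicate 3 was within or below the WT RA range. The other higher genes chosen in this way were Rgl1, the protease gene Adam10, Sipa1l1, Zyg11a, the homeobox gene Irx3, the adrenergic receptor gene Adra2a, the splicing factor gene Prpf3 and Cbln1, a synapse organizer, with log2 fold changes of 0.77 to 2.96 without KO RA replicate 3. KO RA replicate 3 stayed above every WT RA library in Rgl1, Zyg11a and Cbln1.

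The lower genes chosen in this way were Dimt1, Snhg3, Snhg8, Klhl9, Ccnb1, Polr1c, Ak6, Rps23, Dpy30 and Rps29. Dimt1 (chromosome 13, 107083602 to 107098361), a methyltransferase of 18S ribosomal RNA, was at 42.1, 37.9 and 36.0 CPM in WT RA and at 12.7, 12.1 and 47.3 CPM in KO RA. Snhg3, the host RNA of a small nucleolar RNA, was at 200, 211 and 211 CPM and at 49.6, 45.6 and 682 CPM, and Snhg8 was at 330, 316 and 319 CPM and at 98.8, 95.9 and 549 CPM. In all 3 genes replicate 3 of KO RA was above every WT RA library. Ccnb1, the mitotic cyclin, was at 109, 105 and 93.0 CPM and at 35.5, 38.5 and 114 CPM. Klhl9, an adaptor of a ubiquitin ligase, and Polr1c, a subunit of RNA polymerases I and III, kept KO RA replicate 3 below WT RA, at 6.84 CPM against 20.96 to 24.9 CPM and at 107 CPM against 140 to 155 CPM.

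How far KO RA replicate 3 stood from replicates 1 and 2 varied with gene length. Its median log2 difference from the mean of replicates 1 and 2 was 0.76 over 879 genes with up to 500 bases of exons, 0.30 and 0.11 in the next 2 classes (up to 1000 and up to 2000 bases), −0.01 and −0.25 in the following 2 (up to 4000 and up to 8000 bases) and −0.50 over 4757 genes with more than 8000 bases. The log2 fold change of KO RA over WT RA without that replicate ran the other way, with class medians from −0.63 in the shortest to 0.14 in the longest genes. With all libraries the class medians lay between 0.06 and 0.46, the highest in the shortest genes. In KO NO over WT NO they lay between −0.14 and 0.03. Of genes called lower without KO RA replicate 3, 63 fell in the shortest class, which had 1030 tested genes, and 151 in the longest, which had 4830. The higher genes numbered 6 and 289 in the same classes. The part of gene length in these calls was not tested.

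**Figure D4:**
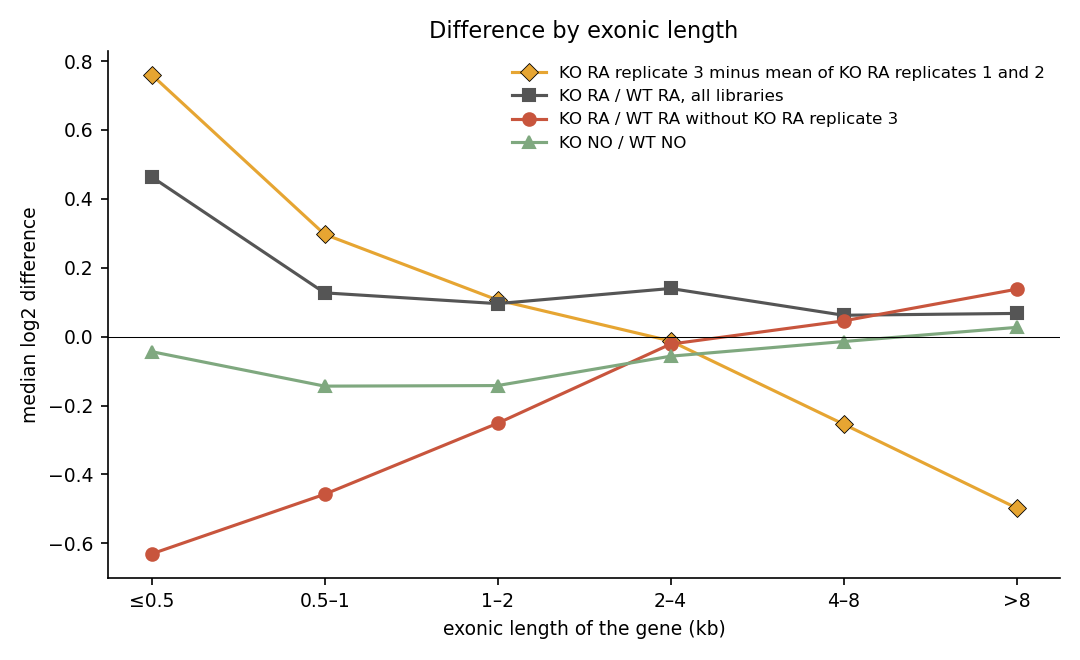
Median log2 difference in 6 classes of exonic length (horizontal axis, kb) for KO RA replicate 3 minus the mean of KO RA replicates 1 and 2 (diamonds), KO RA over WT RA with all libraries (squares) and without KO RA replicate 3 (circles), and KO NO over WT NO (triangles). The diamonds fall from 0.76 to −0.50 and the circles rise from −0.63 to 0.14 with length, while the triangles stay between −0.14 and 0.03.

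By chromosome, the tested genes of chromosomes 13 and 17 had the lowest medians among the autosomes. Their median log2 fold changes were −0.15 over 648 genes and −0.46 over 794 genes, while the medians of the other autosomes and the X chromosome lay between −0.06 and 0.30. Without KO RA replicate 3, the medians were −0.43 and −0.49, and the other autosomes and X lay between −0.07 and 0.26. These 2 chromosomes held 13 and 14 of the 59 lower genes, and 1 each of the 146 higher genes. Without KO RA replicate 3, 96 of 678 genes of chromosome 13 (14.2%) and 167 of 832 genes of chromosome 17 (20.1%) were lower, against 5.44% of all genes. Among the genes named above as lower in either fit, Dimt1, Ccnb1, Ak6 and Rps23 lie on chromosome 13, and Pbx2, Arhgdig, 1110038B12Rik, ENSMUSG00000120308, Polr1c, Dpy30, Pou5f1 and Rps10 lie on chromosome 17. The untreated libraries, which are separate cultures of the same lines, had medians of −0.36 and −0.47 on these chromosomes.

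Along chromosome 13, windows of 20 Mb had medians from −0.08 (40 to 60 Mb, which holds Faf2) to −0.81 (100 to 120 Mb) without KO RA replicate 3, leaving out the last window with 9 genes. Along chromosome 17 they lay between −0.30 and −0.56. On the Y chromosome, 3 of 10 tested genes were lower. Ddx3y, an RNA helicase gene, was at 24.8, 22.8 and 27.5 CPM in WT RA and at 0.858, 0.715 and 2.78 CPM in KO RA, a log2 fold change of −4.21 (adjusted p = 0.0216). The Y-linked Kdm5d was at 11.7, 12.4 and 13.998 CPM and at 9.16, 9.17 and 9.91 CPM and did not pass. Whether the number of copies of these chromosomes differed between the lines was not tested.

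**Figure D5:**
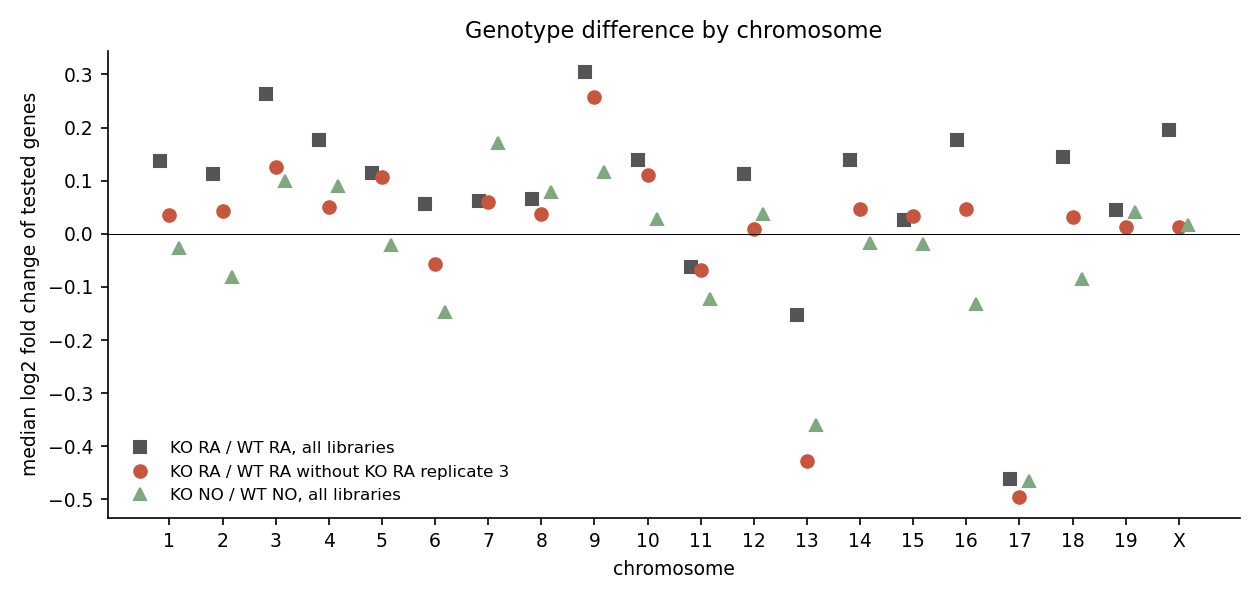
Median log2 fold change over the tested genes of each chromosome for KO RA over WT RA with all libraries (squares) and without KO RA replicate 3 (circles) and for KO NO over WT NO (triangles). Chromosomes 13 and 17 lie below the other autosomes and X in all 3, at −0.15, −0.43 and −0.36 and at −0.46, −0.49 and −0.47.

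Many of the differences after RA had the same direction without RA. Of the 146 higher genes, 123 were also above 0 in KO NO over WT NO and 62 were called there. These 62 were 42.5% of the 146 and 47.7% of the 130 genes higher in KO NO (0.788% of all tested). Of the 59 lower genes, 52 were below 0 and 10 were called, 16.9% of the 59 and 17.2% of the 58 genes lower in KO NO (0.351% of all tested). Without KO RA replicate 3 in the fit, 222 genes were higher both with and without RA, 29.0% of the 765 and 28.9% of the 767 higher in KO NO (4.43% of all tested), and 217 were lower in both, 23.04% of the 942 and 28.8% of the 754 lower in KO NO (4.35%). A further 29 genes were higher in KO RA and lower in KO NO, and 8 were lower in KO RA and higher in KO NO. Stag3, Rbm46, Hormad2, Ephx2 and Gstp1 were called in both, at untreated log2 fold changes of 6.44, 1.98, 5.50, 4.50 and 3.79. The 2 comparisons share no libraries, but share the lines and the estimate of the spread.

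The test of the difference between the genotype effect after RA and without RA called no gene in either direction with all libraries (edgeR, 0% of 16502). At an unadjusted p under 0.05 it gave 913 genes with a higher and 510 with a lower difference, DESeq2 called 214 and 95, and limma-voom with sample quality weights called 588 and 397. Without KO RA replicate 3, edgeR called 139 genes (0.802% of 17327) with a higher difference after RA and 93 (0.537%) with a lower one.

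Of the 10 genes with the smallest p in this test, 5 in each direction, all but Palmd had log2 fold changes of opposite sign in the 2 treatments. Vcan, the matrix proteoglycan versican, was at 3.80, 3.98 and 3.25 CPM in WT RA and at 13.6, 8.18 and 16.6 CPM in KO RA. It was higher in KO RA (log2 fold change 1.79, adjusted p = 0.0324) and at −1.35 in KO NO over WT NO, which did not pass. Gxylt2, a xylosyltransferase of Notch, Nkx1-2, a homeobox gene, and Slc24a3, a sodium and calcium exchanger, were at 1.36, 1.31 and 1.54 after RA and at −2.13, −2.28 and −1.98 without RA. Palmd was at 4.06 after RA and 0.66 without it. In the other direction, Mt2 was at −1.82 after RA and 1.04 without it. Nmnat2, an axonal NAD-synthesizing enzyme, and Dmrt1, a gonadal transcription factor, were at −0.60 and −0.92 after RA and at 2.48 and 2.40 without RA, while Il3ra and Pcolce2 were at −1.01 and −1.55 after RA and 1.08 and 0.52 without it. For these 10 genes the adjusted p of the difference was 0.0825 to 0.130 with all libraries, and 0.0102 to 0.0294 without KO RA replicate 3.

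The genes that the study's text names for RA-treated cells were chosen by the study on these libraries, so that their counts are no independent evidence. Of 22 tested, 6 were higher, 3 lower and 13 not called with all libraries, and 9 were higher and 4 lower without KO RA replicate 3. The higher ones were Stag3, P2rx4, Mir9-3hg, Gstp1, Tgfb2, which encodes a ligand of the TGF-beta family, and Penk, the precursor of enkephalins. Tgfb2 was at 3.32, 6.16 and 3.63 CPM in WT RA and at 18.1, 11.3 and 19.9 CPM in KO RA (log2 fold change 1.91, adjusted p = 0.0202). Penk was at 0.0481, 0.242 and 0 CPM and at 2.21, 2.83 and 0.991 CPM (log2 fold change 4.33, adjusted p = 0.0463). The lower ones were Zic2, Porcn and Pbx2. Hes6, Cspg4, Nptx1 and Jag1 passed only without KO RA replicate 3. Cspg4, a proteoglycan of oligodendrocyte precursors, was at or under the floor in WT RA and at least 4.63-fold higher in KO RA, while Olig2 and Sox10, which define that lineage, were at or under 0.136 CPM in all 6 libraries.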

How the data were processed

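mRNA libraries of WT and Faf2 KO cells, with and without RA, were sequenced as paired ends. The authors ran nf-core/rnaseq with STAR and Salmon on GRCm39 and deposited a table of estimated counts per gene, 57010 genes by 12 libraries. The deposited estimated counts are scaled from TPM to each library's total, which corrects them for gene length, so that they are not fragment counts. They are not normalized between libraries, and counting error is not separated from other error.

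Counts were rounded and tested in R 4.3.3 with edgeR 4.0.16 (robust quasi-likelihood test, TMM factors, filterByExpr, 1 coefficient for each of 4 groups, 8 residual degrees of freedom), with calls at an adjusted p (Benjamini-Hochberg) below 0.05 and no fold limit. Standard errors were derived from the test, as the absolute log2 fold change over the square root of its F statistic. The fit was repeated without KO RA replicate 3. Groups came from the sample records, which name the untreated columns KO NO and WT NO where the table writes only KO and WT with the same replicate number. Replicates were separate passages, and p-values measure the spread between these. Between replicates of an RA group, 40.3% to 55.2% of genes differed by more than a sampling noise worked out from the deposited counts. In pairs with KO RA replicate 3 the shares were 87.2% and 87.3%. Since these counts are scaled for gene length, the shares do not separate sampling noise from other error. A floor of 3 counts in every library of a group turned a fold change into a bound, the mean of the other group over the mean floor. These bounds rest on the scaled counts, so that they are a convention and measure neither counting error nor other error.

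Members, lists and tests were chosen with earlier results of these data known. The 44 gene lists were written from textbook knowledge, and 2 of them from the genes the study's text names. They are described by counts and medians, not by set tests. Named genes were Faf2, Hspa5, Ddit3, Atf4, Xbp1 and Tubb3, genes of the study's text, 12 genes in each direction by smallest p among those called in both fits with groups apart, the 10 higher and 10 lower with the smallest p called only without KO RA replicate 3, up to 4 members of each list by p in each fit, the genes most different in KO RA replicate 3 and 5 in each direction by the p of the interaction. From these the text gives those it describes, and some are not reported here. Ddx3y, Kdm5d, further called list members and the defining cell type markers were named after their values were seen. Gene positions came from GENCODE, which matched 56310 genes, and promoters from RefSeq (GRCm38.p6).

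Alternatives were DESeq2 1.42.0, limma-voom (limma 3.58.1) with sample quality weights, DESeq2's size factors, 2 other filters, only the RA libraries, the replicate number as a block, and each library left out. The tests were checked on simulated data. Figures were drawn with matplotlib 3.10.9 in Python 3.11.15.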

Additional observations from a re-analysis of the deposited data

Results flagged for a closer look

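The difference between the genotype effect after RA and without RA was tested by edgeR without KO RA replicate 3. It is the log2 fold change of KO RA over WT RA minus that of KO NO over WT NO. At an adjusted p under 0.05, 0.802% of all tested genes had a higher and 0.537% a lower difference. The difference passed in 29 of 119 genes that the text names or describes. Of these genes, 10 were chosen by the p of this same test and others for being called only without that replicate, so that nothing is read from the count. With all libraries none of the 29 passed. The adjusted p without that replicate ran from 0.0102 to 0.0484.

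The genotype effect was more positive after RA in 17 of the 29 genes. Among genes of secreted or cell surface proteins, the difference was 4.60 for Cbln1, 3.29 for Tnc, 2.90 for Vcan, 2.76 for Cdh11, 2.72 for Col1a2, 2.23 for Lrrn2, 2.18 for Rspo3, 2.15 for Col5a1 and 1.63 for Sdc3. Among neural progenitor and homeobox genes it was 3.61 for Nkx1-2, 3.52 for Sox1, 2.16 for Irx3 and 1.15 for Nes. It was 3.62 for Palmd, 3.58 for Slc24a3, 3.44 for Gxylt2 and 0.82 for Prpf3. Cbln1 was at 2.55 after RA and −2.05 without RA, and Sox1 was at 2.33 and −1.19.

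In the other direction, the difference was −3.10 for Nmnat2, −3.01 for Dmrt1, −2.80 for Mt2, −2.37 for Acot1, −2.17 for Il3ra, −2.03 for Pcolce2, −1.33 for Snhg8, −1.28 for Snhg3, −1.19 for Rps29, −1.17 for Dimt1, −1.14 for Polr1c and −0.97 for Ccnb1. Acot1 was above 0 in both treatments, at 2.77 after RA and 5.14 without RA.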

How the results depend on the processing

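The number of called genes depended on which libraries and which test were used. Counts are given as higher and lower in KO RA, beside 146 and 59. Leaving out 1 library at a time gave 19 to 765 higher and 0 to 942 lower genes, with the lowest counts without a WT RA library (19 and 0, 27 and 3, and 25 and 2 without WT RA replicates 1, 2 and 3) and the highest without KO RA replicate 3. Without WT NO replicate 3 they were 300 and 125, without KO RA replicate 1 they were 84 and 18, and without a KO NO library 60 to 63 and 16 to 21. For lower genes they were 26 and 30 without WT NO replicates 1 and 2. DESeq2's Wald test called 828 and 487, and 1208 and 1561 without KO RA replicate 3. Limma-voom with sample quality weights called 1615 and 1372. With at least 10 counts in every library the counts were 54 and 26, and with at least 1 count in any library 31 lower genes were called. The 6 RA libraries alone gave 16 and 0, where edgeR had 4 residual degrees of freedom, and 5 of them, without KO RA replicate 3, gave 923 and 1123. At an unadjusted p under 0.05, 776 genes were lower without WT RA replicate 1 and 570 with the 6 RA libraries alone. Replicate numbers did not pair the samples (correlations of deviations between WT RA and KO RA of −0.12, 0.07 and 0.07). With the replicate number as a block, 49 and 10 genes were called, and 441 and 601 without KO RA replicate 3. The difference between treatments called 0 and 0 genes in all other edgeR settings and 139 and 93 without KO RA replicate 3. DESeq2 gave 214 and 95, and 609 and 725 without that replicate, limma-voom 588 and 397, and the block without that replicate 27 and 14. Of 58 named genes called with all libraries, none changed sign in any setting, 58 were also called without KO RA replicate 3 and by DESeq2, 57 by limma-voom, 31 with the replicate block, 9 of 57 with the 6 RA libraries alone and 12 to 18 without a WT RA library. Many of these genes were named for a small p and a call in both fits with groups apart. Their counts are therefore no measure of how stable called genes are. The causes were not tested.

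The sign of 7 genes named above turned with KO RA replicate 3 or the scaling. In the order without KO RA replicate 3, DESeq2 without it, limma-voom, block without it and the 5 RA libraries alone, Snhg3 was at −2.13, −2.14, −2.07, −2.19 and −2.15, Ak6 at −1.26, −1.26, −1.22, −1.29 and −1.27, Dpy30 at −1.72, −1.72, −1.72, −1.73 and −1.73, Rps29 at −1.36, −1.37, −1.29, −1.41 and −1.38, and Atf4 at −0.19, −0.20, −0.15, −0.25 and −0.21. With the block and all libraries, Snhg3 was at −0.23 and Dpy30 at −0.21. Leaving out each library in turn, Snhg3 ranged from −2.13 to 0.91, Snhg8 from −1.73 to 0.094 (0.089 and 0.094 without KO RA replicates 1 and 2), Ak6 from −1.26 to 1.22, Rps23 from −1.75 to 0.35 (0.33 and 0.35 without KO RA replicates 1 and 2), Dpy30 from −1.72 to 0.76, Rps29 from −1.36 to 1.07 and Atf4 from −0.19 to 0.24. Rps23 was at 0.033 with DESeq2 and with its size factors. The median over all tested genes was 0.09, 0.15 with DESeq2's size factors and 0.01 without KO RA replicate 3. Low genes are limited by the floor of 3 deposited counts, which stands higher in KO RA replicate 3 (0.297 CPM) than in the other 5 RA libraries (0.102 to 0.145 CPM).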

Other observations

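Counts of called signalling and guidance genes stand beside 0.885% of all genes higher and 0.358% lower with all libraries, and 4.42% and 5.44% without KO RA replicate 3. Of 34 tested TGF-beta and BMP genes, 1 (Tgfb2) was higher with all libraries and 9 were higher without KO RA replicate 3, with list medians of 0.28 and 0.62. Fst, an activin-binding protein, was at 18.4, 24.3 and 38.7 CPM in WT RA and at 109, 96.6 and 30.3 CPM in KO RA. The value of KO RA replicate 3 lay within the WT RA range. Of 58 tested axon guidance genes, 1 was higher with all libraries, the receptor gene Epha7 (log2 fold change 1.33, edgeR adjusted p = 0.0417), and 9 were higher and 1 lower without KO RA replicate 3. Of 46 tested Wnt genes, Rspo3, a secreted enhancer of Wnt signalling, was higher at 6.78, 10.2 and 7.36 CPM against 21.4, 22.7 and 29.6 CPM (log2 fold change 1.59, adjusted p = 0.0166), and Porcn was lower. The fit without KO RA replicate 3 gave 6 higher and 1 lower Wnt genes, 3 higher of 24 Notch genes and 2 higher of 15 Hedgehog genes, among them Gli2, at 7.50, 11.2 and 7.07 CPM in WT RA and at 30.2, 34.5 and 6.74 CPM in KO RA.

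Among markers of other cell types, none of 9 tested endothelial genes passed with all libraries (median 1.69, 8 above 0), and 2 of 13 were higher without KO RA replicate 3 (median 2.78, 12 above 0). The endothelial list held 16 genes. Members near 0 CPM in WT cells could pass the filter on counts only through KO libraries, so that these medians and signs favour higher genes. The haematopoietic list held 15 genes and has the same limit. With all libraries 1 of 5 tested was higher (median 2.07). In the fit without KO RA replicate 3 it was 2 of 6 (median 0.78), and none was lower in either fit. Counts of all lists in this paragraph stand beside 0.885% of all tested genes higher and 0.358% lower with all libraries. The shares were 4.42% and 5.44% without KO RA replicate 3. Cdh5, which defines endothelial cells, was at 0.192, 0.291 and 0.0478 CPM in WT RA and at 2.62, 2.21 and 0.297 CPM in KO RA. Cd34, a surface protein of blood progenitors and endothelium, was at 2.89, 2.38 and 3.27 CPM in KO RA, at least 19.7-fold higher than in WT RA, whereas the blood marker Ptprc did not exceed 0.0485 CPM in WT RA and 0.297 CPM in KO RA. Ets1, a factor of neural crest and endothelium, was at 4.86, 6.21 and 4.92 CPM against 19.3, 14.96 and 12.4 CPM (log2 fold change 1.55, adjusted p = 0.0165). It was the higher gene among 11 tested of neural crest and Schwann cells, where Foxd3 was the lower. None of 13 tested endoderm, 10 muscle, 8 oligodendrocyte lineage, 20 regional identity, 31 apoptosis or 20 interferon and MHC genes passed with all libraries. Without KO RA replicate 3, these lists had 2, 0, 2, 3, 1 and 0 higher genes and 0, 0, 0, 0, 1 and 1 lower genes. Among 38 tested growth factor genes, Penk and Sdc3, a syndecan, were higher and none was lower with all libraries, and 6 were higher and 1 lower without KO RA replicate 3. Of 17 differentiation markers that the study's text names, Pax6 was lower and none was higher, and 2 of 18 were higher and 1 lower without KO RA replicate 3.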
